A study of Mus musculus with 5 samples.

Results

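Heat shock and chaperone genes were followed across 5 single-cell RNA sequencing libraries of mouse submandibular salivary gland cells. The members were 10 genes chosen by name, out of 32932 genes listed in any of the libraries: the HSP70 genes Hspa1a, Hspa1b and Hspa8, the HSP90 genes Hsp90aa1 and Hsp90ab1, the HSP110 gene Hsph1, the small heat shock gene Hspb1, the J domain genes Dnajb1 and Dnaja1, and the mitochondrial chaperonin partner Hspe1. All 10 were listed in every library and each had at least 121 unique molecular identifiers (UMIs, tags that mark single captured transcripts) in each. Mouse salivary gland organoids (mSGOs) are grown from dissociated gland cells in Matrigel, a basement membrane gel, in WRY medium, which contains Wnt3a and R-spondin1 conditioned medium, the ROCK inhibitor Y27632, EGF, FGF2, insulin and the steroid dexamethasone. The groups were unirradiated 7-day mSGOs (control), 7-day mSGOs given 7 Gy of photons on day 5, 7-day mSGOs given 7 Gy of protons on day 5, unirradiated 11-day mSGOs, and fresh gland tissue that was never cultured. The mice were of the strain C57BL/6 and labelled as 8 to 12 weeks old. Only females were used, per the methods. The 7-day mSGOs derived from 4 animals and were handled on the same day, whereas the 11-day mSGOs came from other animals in a separate run, so that culture day, animals and run cannot be told apart. Organoids and tissue alike were dissociated with trypsin and sorted alive, before the RNA was captured.

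Chaperones bind proteins that are not, or no longer, folded. HSP70 proteins work in cycles driven by ATP, J domain proteins hand substrates to them, and HSP110 proteins exchange their nucleotide. HSP90 proteins finish the folding of kinases and steroid receptors, small heat shock proteins hold unfolded substrates and stabilize the cytoskeleton of epithelial cells, and the chaperonin of mitochondria closes over its substrate with Hspe1 as the lid. Hspa8 and Hsp90ab1 are made constitutively, whereas Hspa1a, Hspa1b, Hspb1, Dnajb1 and Hsph1 are classical targets of the heat shock factor HSF1 and are also known to rise when tissue is dissociated.

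Each group held 1 library, so no difference was tested. A level is the share of a library's UMIs that came from a gene, summed over kept barcodes and scaled so that 10000 CPM equal 1%, with a 95% interval that covers counting error only and not the spread between animals or cultures. In such sums, fewer cells of a type and less RNA per cell cannot be told apart. Between 1402 (tissue) and 15610 (photon) barcodes were kept, with 5932095 to 32070703 UMIs per library and median UMIs per barcode from 898.5 (control) to 3025 (11-day). Libraries shared 25 to 143 of their kept barcodes with another library. The libraries stood apart in Malat1, a nuclear noncoding RNA: it made up at least 1% of UMIs in 16.0% of control, 10.0% of photon, 9.0% of proton and 11.3% of tissue barcodes, but in 98.8% of 11-day barcodes. Results are therefore also given for barcodes with at least 1% Malat1. Markers were checked against the labels. The acinar secretory markers (10 of 11 were in the gene list of the tissue and 7-day libraries, and 11 in that of the 11-day library) summed to 556691 CPM in tissue and to at most 46.2 CPM in any organoid library, with Mucl2 alone at 524622 CPM in tissue, whereas the basal duct keratin Krt14 stood at 5916 CPM in the control.

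The region just upstream of the start site is where HSF1 acts on many of these genes, and 7 of the 10 members had an upstream window of 250 bases in the RefSeq table (build GRCm38.p6). Of these, 4 are shown: Hspa1a and Hspa1b because they are close copies whose levels differed between tissue and culture, and Hspb1 and Hspe1 because their levels fell most from 7-day to 11-day mSGOs. Capitals mark matches to the heat shock element, searched on both strands as a form of 3 units (GAANNTTCNNGAA or TTCNNGAANNTTC) and as a form of 2 units (GAANNTTC or TTCNNGAA). The windows lie at chr17:34972157-34972406 (minus strand), chr17:34959239-34959488 (minus strand), chr5:135887669-135887918 (plus strand) and chr1:55087898-55088147 (plus strand), in the order shown.
Hspa1a: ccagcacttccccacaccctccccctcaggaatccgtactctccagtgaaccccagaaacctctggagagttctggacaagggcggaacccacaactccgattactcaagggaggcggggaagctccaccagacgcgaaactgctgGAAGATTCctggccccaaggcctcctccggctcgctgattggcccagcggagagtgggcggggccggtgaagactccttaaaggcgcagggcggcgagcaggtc
Hspa1b: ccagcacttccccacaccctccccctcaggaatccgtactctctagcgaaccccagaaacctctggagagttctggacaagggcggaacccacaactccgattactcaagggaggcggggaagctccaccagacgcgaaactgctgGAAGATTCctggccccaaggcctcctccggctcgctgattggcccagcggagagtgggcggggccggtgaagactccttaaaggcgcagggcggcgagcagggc
Hspb1: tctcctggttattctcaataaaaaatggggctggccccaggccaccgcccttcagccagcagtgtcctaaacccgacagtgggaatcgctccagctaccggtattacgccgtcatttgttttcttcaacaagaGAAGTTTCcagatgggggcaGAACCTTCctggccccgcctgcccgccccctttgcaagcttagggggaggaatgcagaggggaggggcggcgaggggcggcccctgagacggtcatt
Hspe1: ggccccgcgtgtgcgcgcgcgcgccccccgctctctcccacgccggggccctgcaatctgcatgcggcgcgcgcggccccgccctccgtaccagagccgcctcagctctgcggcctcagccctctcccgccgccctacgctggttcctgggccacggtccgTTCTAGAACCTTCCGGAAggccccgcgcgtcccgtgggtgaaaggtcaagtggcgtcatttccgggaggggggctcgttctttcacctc
The Hspa1a and Hspa1b windows were identical at 247 of 250 positions (98.8%), and both held GAAGATTC at 104 to 97 bases before the start. The Hspb1 window held GAAGTTTC at 117 to 110 bases and GAACCTTC at 97 to 90 bases before it. The 3-unit form was found in the window of 1 member, Hspe1, as overlapping matches from 89 to 72 bases before the start. It was present in 0.466% of 32851 such windows of the genome. The 2-unit form was present in 6 of the 7 members' windows, all but that of Dnajb1, and in 12.8% of all windows. A match describes letters and is not evidence of binding.

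Among the inducible HSP70 genes, Hspa1a (ENSMUSG00000091971, chr17:34969359-34972156) stood at 39.0 CPM (36.0 to 42.3) in the control, 22.3 (20.5 to 24.2) after photons, 25.3 (23.4 to 27.4) after protons, 10.1 (9.06 to 11.3) in 11-day mSGOs and 262 (249 to 275) in tissue. Tissue was thus highest and 11-day mSGOs lowest, and only the photon and proton intervals overlapped. Its neighbour Hspa1b (ENSMUSG00000090877, chr17:34956429-34959238), which encodes a near-identical HSP70, stood at 102.3 CPM (97.4 to 107) in the control, 84.7 (81.1 to 88.3) after photons, 64.3 (61.1 to 67.5) after protons, 42.1 (39.9 to 44.4) in 11-day mSGOs and 159 (149 to 169) in tissue. No intervals of Hspa1b overlapped. Despite their shared coding sequence, no other gene matched the last 500 transcript bases of Hspa1a or of Hspa1b at 95% identity over 90 bases, so their 3′ ends differ.

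The constitutive HSP70 gene Hspa8 (ENSMUSG00000015656, chr9:40801276-40805202) stood at 1163 CPM (1147 to 1180) in the control and at 1162 (1149 to 1175) after photons, with overlapping intervals. It was at 1249 (1235 to 1263) after protons, 743 (734 to 753) in 11-day mSGOs and 333 (318 to 348) in tissue. Hsph1 (ENSMUSG00000029657, chr5:149616843-149636498), the HSP110 nucleotide exchanger, was the member with the fewest UMIs. It stood at 13.0 CPM (11.3 to 14.9), 14.9 (13.4 to 16.5) and 13.1 (11.7 to 14.6) in the control, photon and proton libraries, whose intervals overlapped, and at 22.1 (20.5 to 23.8) and 20.4 (16.9 to 24.4) in 11-day mSGOs and tissue, which overlapped each other. Of the J domain genes, Dnajb1 (ENSMUSG00000005483, chr8:83608175-83612653) stood at 158 CPM (151 to 164) in the control, 126 (122 to 131) after photons, 143 (138 to 148) after protons, 58.0 (55.4 to 60.7) in 11-day mSGOs and 49.6 (44.1 to 55.6) in tissue, the last pair of intervals overlapping narrowly. Dnaja1 (ENSMUSG00000028410, chr4:40722468-40734965) had another order. It was highest in 11-day mSGOs at 238 CPM (233 to 243), followed by the photon library at 175 (170 to 181), the proton library at 166 (161 to 172), the control at 148 (143 to 155) and tissue at 112 (104 to 121), and only the photon and proton intervals overlapped.

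The HSP90 genes kept the same low point in tissue. Hsp90ab1 (ENSMUSG00000023944, chr17:45567778-45573261), the constitutive form, stood at 2992 CPM (2965 to 3019) in the control, 3305 (3283 to 3328) after photons, 3202 (3180 to 3225) after protons, 3450 (3430 to 3471) in 11-day mSGOs and 465 (447 to 482) in tissue. The inducible form Hsp90aa1 (ENSMUSG00000021270, chr12:110691036-110696395) stood at 301 CPM (293 to 310), 386 (378 to 394), 379 (371 to 386), 352 (345 to 358) and 103 (94.8 to 111) in the same order, and its photon and proton intervals overlapped.

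Hspb1 (ENSMUSG00000004951, chr5:135887919-135889563), the small heat shock gene, gave 1.26% of all control UMIs. Its level was 12638 CPM (12582 to 12693) in the control, 12398 (12355 to 12442) after photons and 13307 (13261 to 13352) after protons, but 1888 (1873 to 1903) in 11-day mSGOs and 259 (247 to 273) in tissue. At least 1 Hspb1 UMI was seen in 99.9% of control and 93.4% of 11-day barcodes. After thinning every barcode to 1000 UMIs, which left out 3937 shallower barcodes of the control and 150 of the 11-day library, these shares were 99.7% and 73.4%, and the share in tissue was 10.7%. Hspe1 (ENSMUSG00000073676, chr1:55088148-55091317) fell into the same groups, with 578 CPM (566 to 590) in the control, 592 (583 to 602) after photons and 591 (582 to 601) after protons, against 136 (132 to 140) in 11-day mSGOs and 110.1 (102 to 119) in tissue. The proton interval overlapped those of the control and of the photon library. Its partner Hspd1, which encodes the chaperonin itself and lies head to head with it, did not follow that order, with 204 CPM in the control, 281 in 11-day mSGOs and 68.3 in tissue.

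**Figure D1:**
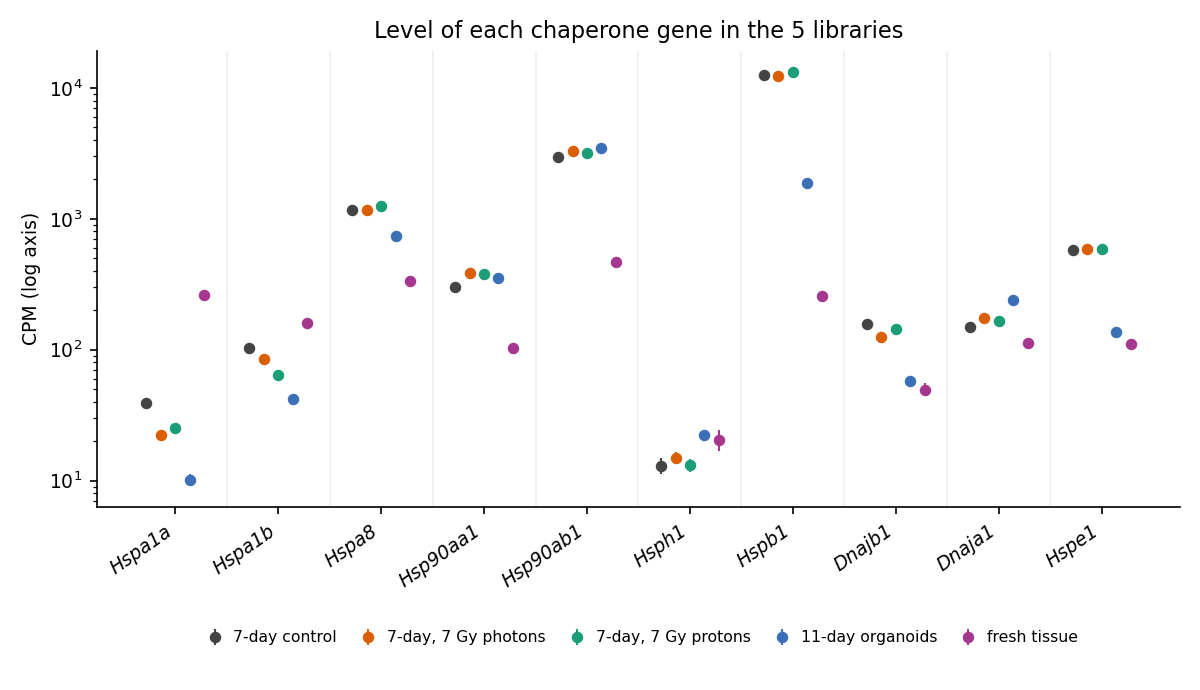
Level of each of the 10 genes in the 5 libraries, in CPM on a log axis, with 1 point per library and bars for the 95% counting interval (often smaller than the point). The 7-day libraries lie close together for most genes, Hspb1 drops from 12638 CPM in the control to 1888 in 11-day mSGOs and 259 in tissue, and Hspa1a is highest in tissue at 262 CPM.

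To ask which of these genes responded to irradiation, each irradiated library was set against the control, which both comparisons share. A gene was counted as higher or lower when its ratio passed 1.5-fold, on log2(CPM + 1). Of the members, Hspa1a had the largest change in the photon library and Hspa1b in the proton library. Hspa1a was 1.72-fold lower after photons, with a log2 ratio of -0.78 (-0.98 to -0.64), and 1.52-fold lower after protons, at -0.60 (-0.79 to -0.46). Hspa1b was lower by less than 1.5-fold after photons, at -0.27 (-0.37 to -0.18), and 1.58-fold lower after protons, at -0.66 (-0.77 to -0.57). The proton intervals of both genes include 1.5-fold. Thus 1 of 10 members was lower after photons and 2 of 10 after protons, and 0 were higher in either. Among genes with at least 200 UMIs and 20 CPM, 1.53% of 4369 were lower and 2.66% higher after photons, and 1.52% of 4354 were lower and 3.05% higher after protons. Hsph1 lay under 20 CPM in the 7-day libraries, so 9 of 10 members passed these minimums there. For Hspa1a, 0.572% of genes had a lower ratio after photons and 1.31% after protons. The median log2 ratio of the members was 0.02 after photons and 0.05 after protons, against 0.08 and 0.10 over all genes. Sums of cell type markers also differed among these libraries. Cycling markers fell from 426 CPM (control) to 251 (photon) and 286 (proton), and cornified squamous markers from 1758 CPM to 1424 and 1125. Basal duct markers went the other way, from 8650 CPM to 9576 and 9476. How far such shifts enter the members' ratios was not tested.

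Hsp90aa1 went the other way without passing 1.5-fold, with a log2 ratio of 0.36 (0.31 to 0.41) in the photon and 0.33 (0.28 to 0.38) in the proton library. Dnaja1 had ratios of 0.24 (0.17 to 0.31) and 0.16 (0.09 to 0.24), and Hsp90ab1 of 0.14 (0.13 to 0.16) and 0.10 (0.08 to 0.11), which turned to -0.12 and -0.09 among barcodes with at least 1% Malat1. Dnajb1 was at -0.32 (-0.40 to -0.25) and -0.14 (-0.21 to -0.06), the same sign as the inducible HSP70 genes. Hspb1, Hspe1 and Hspa8 lay within 0.11 of no change in both libraries. The Hsph1 intervals of -0.06 to 0.44 and -0.25 to 0.27 include 0, so a difference was not detectable at this depth.

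**Figure D2:**
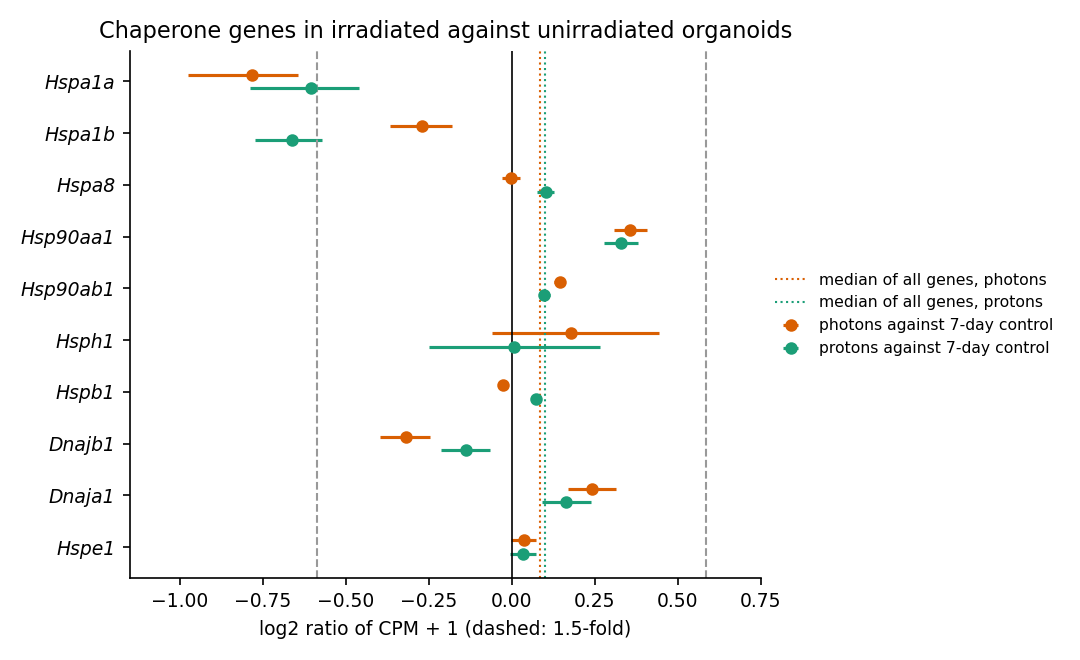
Log2 ratios of CPM + 1 of the photon and the proton library over the 7-day control for each gene, with 95% counting intervals; dashed lines mark 1.5-fold and dotted lines the median of all genes. Hspa1a lies past the lower dashed line after both radiation types, Hspa1b after protons only, and no gene lies past the upper line.

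The irradiated libraries differed from each other in Hspa1b, which was at -0.39 (-0.49 to -0.30) for protons over photons, a ratio lower than that of all but 1.62% of genes. The other 9 members lay within 0.19 of no difference. No member passed 1.5-fold in this comparison, where 0.547% of 4385 genes were higher and 0.502% lower after protons.

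Among barcodes with at least 1% Malat1, Hspa1a and Hspa1b were the members furthest from the control. Hspa1a was at 37.5 CPM in the control and at 17.0 and 23.1 CPM in the photon and proton libraries, and Hspa1b at 109.7, 69.3 and 57.3 CPM. After photons the log2 ratios were -1.10 for Hspa1a and -0.65 for Hspa1b, and 2 of 10 members were lower, against 1.67% of 4792 genes lower and 3.19% higher. After protons they were -0.68 and -0.93, and again 2 of 10 members were lower, against 1.98% of 4744 genes lower and 2.76% higher. Hsp90aa1 stood at 384 CPM in these control barcodes, 473 after photons and 446 after protons. The share of barcodes with any Hspa1a UMI after thinning to 1000 UMIs was 4.15% in the control, 2.28% in the photon and 2.57% in the proton library, with 8.25%, 3.49% and 3.82% before thinning; such shares depend on free RNA too, and no cell type known to lack Hspa1a was there to measure it.

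The merged 7-day libraries gave 6 clusters, none with the markers needed for a name. Libraries filled them unequally (cluster 1 took 14.3% of barcodes from the control, 47.3% from the photon and 33.8% from the proton library), and member genes were not kept out of the clustering, so the values within clusters are a description. Hspa1a was lower than in the control in every cluster and after both radiation types, with log2 ratios from -1.22 (cluster 6, photons) to -0.29 (cluster 4, photons). Its counting intervals included 0 only in cluster 4, where the control had 6 Hspa1a UMIs. Hspa1b ranged from -0.97 (cluster 5, protons) to -0.01 (cluster 3, photons), and its proton ratio was below its photon ratio in each cluster. Hsp90aa1 was less even. It stood at 110 CPM in control barcodes of cluster 3, which had a median Malat1 share of 0.066%, and its ratios there were 0.68 (0.53 to 0.84) and 0.82 (0.67 to 0.97). In cluster 5, led by the nuclear transcripts Neat1 and Malat1, they were 0.32 (0.24 to 0.39) and 0.24 (0.16 to 0.31), and in clusters 1 and 2 they lay within 0.09 of no change.

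**Figure D3:**
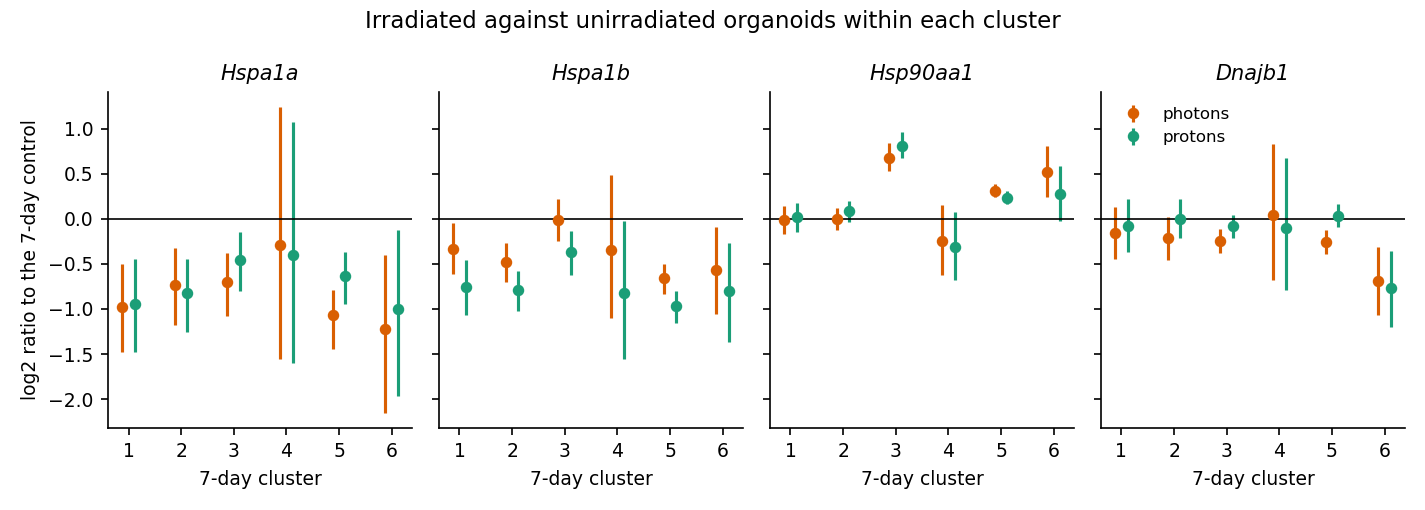
Log2 ratio of the photon and the proton library over the 7-day control within each of 6 clusters of the merged 7-day libraries, for Hspa1a, Hspa1b, Hsp90aa1 and Dnajb1, with 95% counting intervals. Hspa1a lies below 0 in all clusters, while Hsp90aa1 lies above 0 in clusters 3, 5 and 6, close to 0 in clusters 1 and 2 and below it in cluster 4.

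The counts of other chaperone genes after irradiation stand beside 2.66% of all genes higher and 1.53% lower in the photon library, and 3.05% and 1.52% in the proton library, shares at which lists of this size hold few such genes. Of 8 lists of other chaperone genes, the HSF1 list (16 genes) had 1 gene past 1.5-fold after photons, Rgs2, which was named after its values were seen and stood at 4.30 CPM against 2.53 in the control, and 0 after protons. The J domain list (13 genes) had 1 gene higher in each library, Dnaja4, an HSP70 partner, which stood at 34.99 CPM in the control and at 53.9 CPM after photons (log2 ratio 0.61) and 59.0 CPM after protons (0.74). No gene of the lists of cytosolic HSP70 and HSP110 (4 genes measured), HSP70 and HSP90 cochaperones (18), the cytosolic chaperonin TRiC with prefoldin (13), mitochondrial chaperones (10), endoplasmic reticulum chaperones (20) and other small HSPs (4) passed 1.5-fold in either direction. Their median log2 ratios ran from -0.04 (endoplasmic reticulum) to 0.24 (HSP70 and HSP110) after photons and from 0.08 to 0.28 for the same lists after protons; the HSF1 list had 0.14 and 0.17. Within them, Hspa4, an HSP110 gene, had ratios of 0.41 and 0.34, and Nudcd2, an HSP90 cochaperone, 0.46 and 0.52. Of immediate early genes of the kind raised by dissociation, Fos was at 63.9 CPM in the control and at 124 and 127 CPM in the photon and proton libraries, and the 18 genes of that list summed to 3902, 3801 and 4194 CPM. In the photon library 2 of 18 were higher (Fos and Fosb) and 1 lower (Nr4a1, at -0.86), and in the proton library 1 was higher (Fos) and 1 lower (Nr4a1, at -0.97), with median log2 ratios of 0.02 and 0.03. Their part in the HSP70 values was not tested.

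To compare organoid stages, the 11-day library was set against the 7-day control over the genes both list. The median log2 ratio of all genes was 0.97 and not 0, so ratios are given as measured and relative to that median. Hspb1 and Hspe1 fell furthest. Hspb1 was 6.66-fold lower, with a log2 ratio of -2.74 (-2.75 to -2.72), or -3.70 relative to all genes, and Hspe1 was 4.20-fold lower, at -2.07 (-2.13 to -2.03), or -3.04. The inducible genes Hspa1a, at -1.84 (-2.14 to -1.74), Dnajb1, at -1.42 (-1.52 to -1.35), and Hspa1b, at -1.25 (-1.38 to -1.17), followed, and Hspa8 was at -0.64 (-0.67 to -0.61). Dnaja1 at 0.68 (0.62 to 0.76) and Hsph1 at 0.73 (0.55 to 1.00) were higher as measured and lower than the median gene, and median-of-ratios scaling turned them to -0.37 and -0.27. Hsp90aa1 and Hsp90ab1 were at 0.23 and 0.21 as measured, and the same scaling gave -0.83 and -0.85. Thus 6 of 10 members were lower and 2 of 10 higher, while 9.56% of 6634 genes were lower and 62.2% higher. Of the 6, Hspa1b fell short of 1.5-fold at -0.48 with at least 2500 genes per barcode, and Hspa8 at -0.56 with at least 2000 UMIs per barcode. All 10 lay below the median ratio of all genes. Cell type markers differed between the stages as well. Basal duct markers summed to 8650 CPM in the control and 4200 in 11-day mSGOs, and cycling markers to 426 and 103. Pro-acinar markers summed to 96.6 and 528 CPM, and cornified squamous markers to 1758 and 2570. The part of these shifts in the members' ratios was not tested.

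Barcodes with at least 1% Malat1 gave similar ratios for the members that fell, whereas Hsp90aa1 and Hsp90ab1 turned to -0.13 and -0.23. Hspb1 stood at 11653 CPM in the control and 1890 in 11-day mSGOs there, a log2 ratio of -2.62, and Hspe1 at 507 and 135 CPM, a ratio of -1.89. In that subset 6 of 10 members were lower and 1 of 10, Dnaja1, was higher, against 10.4% of 6663 genes lower and 56.7% higher. The counts of Hspe1 are uncertain, because the last 500 bases of its transcript had near-identical matches in 99 other genes of the annotation. Of these, 63 were in the gene lists of all libraries. Hspb1 had 1 such match, to a gene in neither gene list.

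Within 11-day mSGOs, Hspb1 was low in every cluster relative to the 7-day control. It ranged from 326 CPM in cluster 10 (104 barcodes) to 3121 CPM in cluster 2, whereas in the control it ranged from 6199 CPM in 51 cycling-like barcodes to 18173 CPM in 82 cornified squamous-like barcodes, so that the cluster ranges did not overlap. The cornified squamous-like control barcodes also had the highest Dnajb1 (314 CPM) and Hspa1b (225 CPM) and the lowest Hspa8 (452 CPM) of the 6 control clusters. Cycling-like barcodes had the highest Hsp90aa1 of both libraries' clusters, with 540.4 CPM in the control and 653 CPM in 11-day mSGOs. Hspa1a stayed at or under 22.2 CPM in all 12 clusters of 11-day mSGOs.

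The counts of other chaperone lists stand beside 62.2% of all genes higher and 9.56% lower. Endoplasmic reticulum chaperones had 12 of 20 genes higher, a share near that of all genes, and 0 lower (median log2 ratio 0.71), with Sel1l, which acts in the removal of misfolded proteins, at 2.03 and P4hb, a disulfide isomerase, at -0.45. The HSP70 and HSP110 list had 5 of 6 higher and 0 lower (1.43), with Hspa14 at 0.75 and Hspa13 at 2.03. Of mitochondrial chaperones 4 of 10 were higher and 0 lower (0.55), from Grpel1 at -0.46 to Dnajc19 at 1.59. The J domain list had 4 of 13 higher (0.47; Dnajc7 at 1.48, Dnajc9 at -0.46), the cochaperone list 5 of 18 higher (0.38; Tomm70a at 1.10) and the other small HSPs 1 of 4 higher (0.14; Hspb8 at 0.88, Hspb11 at -0.30), all with 0 lower. TRiC and prefoldin had 2 of 13 higher and 2 lower (-0.23), from Pfdn4 at -0.90 to Cct3 at 0.86. The HSF1 list was mixed, with 7 of 16 higher and 3 lower (0.45): Sqstm1, an autophagy receptor, was at 2.78, and Cryab, a small heat shock protein, at -0.98. Apart from the HSP70 and HSP110 list, each of these medians lay below the 0.97 of all genes.

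Fresh tissue was then compared with the 7-day control. Its acinar secretory transcripts made up 556691 CPM of the library, and the median log2 ratio of all genes was -1.79. Hspa1a was 6.57-fold higher in tissue as measured, with a log2 ratio of 2.72 (2.61 to 2.88), or 4.5 relative to all genes. Over the alternatives it stayed higher, from 0.98 with at least 2500 genes per barcode to 5.15 with at least 1% Malat1. Hspa1b, at 0.63 (0.52 to 0.75), and Hsph1, at 0.61 (0.31 to 0.98), were also higher, by 2.41 and 2.39 relative to all genes, but they turned to -0.45 and -0.46 when no minimum of genes per barcode was set. Hspb1 was 48.5-fold lower, at -5.60 (-5.68 to -5.53), or -3.82 relative to all genes, and stayed lower under the same alternatives, from -8.44 to -3.07. Hsp90ab1 at -2.68, Hspe1 at -2.38, Hspa8 at -1.80, Dnajb1 at -1.65 and Hsp90aa1 at -1.54 were lower as measured. Relative to all genes, Hsp90aa1 and Dnajb1 lay at 0.24 and 0.14, and they turned to 0.13 and 0.01 under median-of-ratios scaling, where Hspa8 was at -0.13. Dnaja1 at -0.40 was within 1.5-fold, and 1.38 above the median gene. In counts, 3 of 10 members were higher and 6 lower, against 6.28% of 4250 genes higher and 86.6% lower.

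In tissue barcodes with at least 1% Malat1, of which there were 158, the ratios of Hspa1a, Hspa1b and Hsph1 were larger than over all kept barcodes, and Dnaja1 was higher too. Hspa1a reached 1370 CPM against 37.5 in the control, Hspa1b 945 against 109.7, Hsph1 124 against 18.0 and Dnaja1 508 against 155. There 4 of 10 members were higher and 2, Hspb1 and Hsp90ab1, lower, with 16% of 3860 genes higher and 44.6% lower. Hspa8, Hsp90aa1 and Dnajb1 changed direction in this subset, to log2 ratios of 0.26, 0.51 and 0.56. The dissociation stress list summed to 12988 CPM in these tissue barcodes and to 4623 CPM in those of the control, but over all kept barcodes it was at 2615 CPM in tissue and 3902 CPM in the control. The 7 endothelial markers summed to 3138 CPM in the same tissue barcodes and to 15.2 CPM in the control, and the 9 macrophage markers to 7165 and 16.9 CPM. The part of either in the levels of the members was not tested; the levels by cluster follow.

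The comparison of 11-day mSGOs with tissue had a median log2 ratio of 2.46. Hspa1a was 23.5-fold lower in 11-day mSGOs than in tissue, at -4.55 (-4.86 to -4.51), and Hspa1b was at -1.88 (-2.03 to -1.79), but at -0.08 with at least 2500 genes per barcode. Hspb1 was at 2.87, Hsp90ab1 at 2.90, Hsp90aa1 at 1.77, Hspa8 at 1.16 and Dnaja1 at 1.09; under median-of-ratios scaling the last 3 changed sign, and Hspb1 and Hsp90ab1 fell short of 1.5-fold at 0.43 and 0.46. As measured, 5 of 10 members were higher and 2 lower, while 93.6% of 6585 genes were higher and 3.13% lower.

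**Figure D4:**
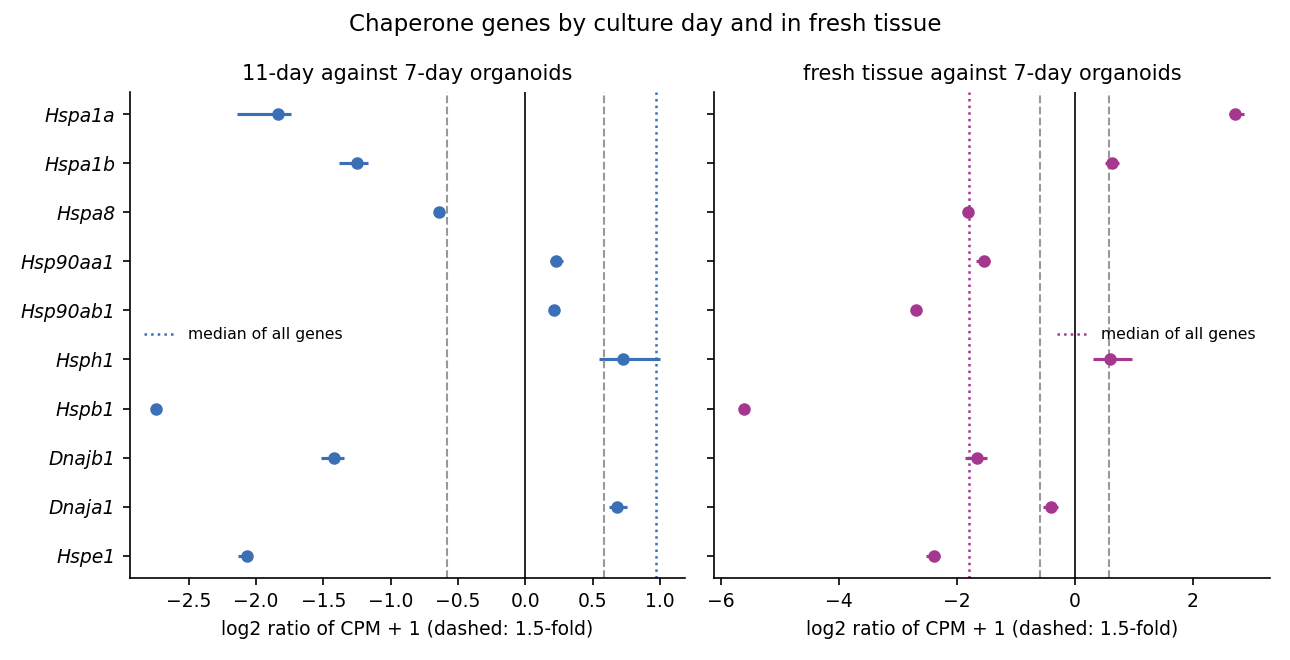
Log2 ratios of CPM + 1 for each gene in 11-day mSGOs (left) and in fresh tissue (right) over the 7-day control, with 95% counting intervals; dashed lines mark 1.5-fold, and the dotted line is the median of all genes in that comparison (0.97 on the left, -1.79 on the right). All 10 genes lie left of the dotted line in 11-day mSGOs, whereas in tissue Hspa1a lies at 2.72 and Hspb1 at -5.60, on opposite sides of it.

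The tissue library gave 9 clusters, and over 50.0% of the UMIs of Hspa1a, Hspa1b and Hspb1 lay in 1 of them. Cluster 7 (68 barcodes) carried all 7 endothelial markers, among them Pecam1, Cdh5 and Kdr. It stood at 3569 CPM of Hspa1a, 2093 CPM of Hspa1b and 4238 CPM of Hspb1. It made up 4.85% of tissue barcodes and 3.93% of tissue UMIs, but held 832 of 1554 Hspa1a UMIs (53.5%), 51.8% of those of Hspa1b and 64.2% of Hspb1. Hsp90aa1 (1030 CPM) and Dnaja1 (974 CPM) were highest there too, and Hsp90ab1 stood at 2106 CPM there and at 2041 CPM in cluster 9. Cluster 5 (91 barcodes), a further endothelial-like cluster with 3 of the 7 markers, had 364 CPM of Hspa1a, 56.3 of Hspa1b and 932 of Hspb1, and Hspb1 was among the 10 genes that set it apart.

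The acinar secretory-like cluster was at the other end. In its 120 barcodes Hspa1a stood at 26.0 CPM, Hspa1b at 9.45, Hspb1 at 5.91 and Hsp90aa1 at 10.0. The granular or striated duct-like cluster (142 barcodes) had 129 CPM of Hspa1a, 108 of Hspa1b and 71.8 of Hspb1, and the pro-acinar-like cluster (80 barcodes) 148, 108 and 157 CPM. An erythroid-like cluster (313 barcodes), whose leading genes also held Krt14 and Ccl2, had 119 CPM of Hspa1a. Cluster 9 (48 barcodes) had all 9 macrophage markers over 2-fold but was led by S100a8 and Retnlg, which are neutrophil genes, and so stayed unnamed. It came next after cluster 7, with 726 CPM of Hspa1a and 698 of Hspa1b; it had the highest Hspa8 of the 9 (1815 CPM), and Dnajb1 (296 CPM) and Hsph1 (157 CPM) at levels near those of cluster 7 (266 and 146 CPM). Its Hspb1, at 114 CPM, was far below that of cluster 7. The low acinar values depended on the clustering. At a Leiden resolution of 0.5 the acinar secretory-like cluster held 624 barcodes. There Hspa1a stood at 64.7 CPM, Hspa1b at 19.4, Hspb1 at 84.7 and Hsp90aa1 at 22.4. Hspb1 was then not lowest in that cluster, with 78.5 CPM in the granular or striated duct-like and 59.6 in the pro-acinar-like cluster.

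**Figure D5:**
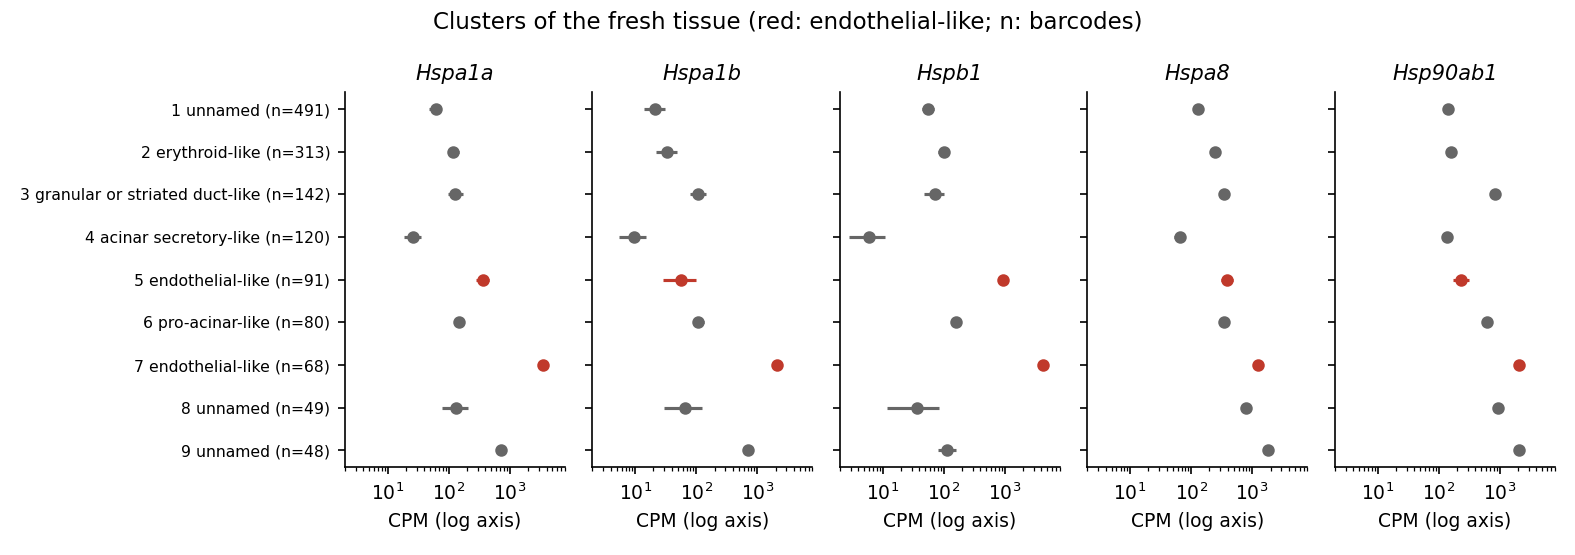
Level of Hspa1a, Hspa1b, Hspb1, Hspa8 and Hsp90ab1 in the 9 clusters of the tissue library, in CPM on a log axis with 95% counting intervals; n is the number of barcodes and red marks the endothelial-like clusters. Hspa1a, Hspa1b and Hspb1 peak in cluster 7 at 3569, 2093 and 4238 CPM, and Hspa8 peaks in cluster 9 at 1815 CPM.

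Within cluster 7 the barcodes were uneven. Of 68 barcodes, 34 (50.0%) had an Hspa1a UMI, the median barcode stood at 69.6 CPM, the barcode at the 90th percentile at 12401 CPM, and the highest barcode held 123 UMIs. Hspb1 was more evenly spread, with UMIs in 56 barcodes (82.4%) and a median of 1159 CPM. Over the tissue library, the 1% of barcodes with the most Hspa1a held 50.8% of its UMIs, compared with 10.9% in the control. Of 120 acinar secretory-like barcodes, 12 (10.0%) had an Hspa1a UMI and 8 (6.67%) an Hspb1 UMI. Their median barcode held 3118 UMIs from 243.5 genes, against 3232 UMIs from 1320 genes in cluster 7; how much of these shares is free RNA was not tested.

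The endothelial-like clusters together held 58.1% of tissue Hspa1a UMIs, 53.0% of Hspa1b and 76.0% of Hspb1. Their share of the other members' UMIs was 40.7% for Hsp90aa1, 37.1% for Dnaja1, 28.9% for Hsph1, 26.2% for Dnajb1, 19.5% for Hsp90ab1, 18.4% for Hspa8 and 13.0% for Hspe1. Without these 159 barcodes, an alternative added after the data were seen, the tissue ratio over the control was 1.57 for Hspa1a, which stayed higher, and -0.34 for Hspa1b, which changed direction. Hspb1 went from -5.60 to -7.54. In the 7-day organoids the endothelial markers summed to between 16.5 and 19.0 CPM, with Egfl7 as the main contributor and 3 or 4 of the 7 markers at 0.

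Across 27 clusters of the control, 11-day and tissue libraries, Pearson correlations of log2(CPM + 1) described which genes varied alike; the clusters share libraries and depth, so no test is given. Hsp90aa1 and Hsp90ab1 were closest among the members (r = 0.93), followed by Hspa8 with Hsp90aa1 (0.87). Hspa1a and Hspa1b had r = 0.71, and Hspa1a was at -0.29 with Hsp90ab1 and -0.15 with Hspb1. Among 10590 genes, the profile of Hspa1b was most like those of Junb (0.90), Dusp1 (0.84) and Gadd45b (0.81), immediate early and stress genes. Hspa1a was most like Gadd45g (0.85), the endothelial gene Plvap (0.85) and Abi3 (0.84). Hspb1 was most like Jup (0.96), which encodes the junction protein plakoglobin, Anxa7 (0.93) and Id3 (0.93). Hsp90ab1 was most like Hdgf (0.96), its cochaperone Ptges3 (0.96) and Gtpbp4 (0.96), and Hsp90aa1 like Rad21 (0.94), Canx (0.94) and Hsp90ab1. Hspe1 was most like Tmem256 (0.94), Tomm7 (0.94), a subunit of the mitochondrial import pore, and Alkbh7 (0.94), and Dnajb1 like Rhog (0.89) and Ier5 (0.87), an HSF1 regulator. Hspa8 came closest to Arpc1b (0.94), Pnp (0.93) and Ybx1 (0.93), Hsph1 to Myd88 (0.92), Ddx41 (0.92) and Arhgef1 (0.90), and Dnaja1 to Hmgb1 (0.91), Tln1 (0.91) and Arhgdia (0.90).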

How the data were processed

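Single cells from 7-day mSGOs (control, photon, proton), 11-day mSGOs and fresh tissue were sequenced as 3′ droplet libraries, 1 per group. The authors deposited whole-number counts of UMIs per gene and barcode. The submitters' processing notes name Cell Ranger 5 and mm10, whereas the study's methods name GRCm39, and the file headers give software versions that differ between the 11-day library and the others. Whether intron reads were counted is not given in the sources used here. Gene lists held 31053 genes (7-day, tissue) and 32285 (11-day), with 30406 in both. Groups came from the labels.

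Barcodes with at least 200 genes and at most 5% mitochondrial UMIs were kept. No barcode of the organoid libraries had fewer genes, against 11597 of 13547 in tissue, and between 279 and 3927 barcodes per library had a higher mitochondrial share. The highest Scrublet doublet scores, up to 0.8% per 1000 barcodes, were removed (16 to 2674 barcodes). The study states a feature threshold of 2500, and it was run as an alternative in both readings. UMIs were summed per library to give CPM. Ratios used log2 with a pseudocount of 1 CPM. Intervals were exact Poisson (levels), conditional exact binomial (ratios, without pseudocount) and Clopper-Pearson (shares) at 95%; ratio calculations were tested on simulated data. Higher or lower means past 1.5-fold. The background held genes with at least 200 UMIs in the compared libraries and 20 CPM in the higher one.

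Clusters came from 2000 variable genes, 30 components, 15 neighbours and Leiden resolution 0.8 (scanpy 1.11.5, leidenalg 0.10.2), and were named from 3 or more markers at least 2-fold higher, with such markers among the 10 leading genes. Near copies were found with blastn 2.17.0 against the GENCODE transcripts of GRCm39, and coordinates and promoter windows are RefSeq's for GRCm38.p6. Windows were found for 7 members. Other numerical work used Python 3.11.15, numpy 2.4.6, scipy 1.17.1 and pandas 2.3.3.

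The 10 members, 8 lists of other chaperone genes (105 genes) and the marker lists were chosen with earlier results of these data known. The genes named were the members, of each chaperone list the highest and lowest ratio among genes past the background minimums, and for each member the 3 genes with the most similar profile over clusters. Some genes picked by this rule are not reported here. Alternatives covered barcode filters, doublets, depth, Malat1 share, scaling, weighting of barcodes and pseudocount.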

Additional observations from a re-analysis of the deposited data

Results flagged for a closer look

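Barcodes with a mitochondrial share over 5% were left out of all comparisons above. Among them, Hspb1 stood at 6353 CPM in the photon library and 6063 CPM in the proton library, above the 5195 CPM of the control barcodes left out for the same reason. In 11-day mSGOs these barcodes had 451 CPM and in tissue 309 CPM of Hspb1.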

How the results depend on the processing

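No paired analysis was possible because each group held 1 library. Over 13 alternatives, the 60 member ratios gave 434 values close to the reported ones, 324 that moved out of the counting interval, and 22 that changed direction, which was counted only for ratios past 1.5-fold as reported. The ratios of Hspa1a stayed negative in all of them, from -1.10 to -0.60 after photons and from -0.72 to -0.47 after protons, as did those of Hspa1b, and those of Hsp90aa1 stayed positive (0.10 to 0.48 and 0.07 to 0.41). The count of members past 1.5-fold moved to 2 after photons with at least 1% Malat1, to 1 after protons with at least 2000 UMIs per barcode or a pseudocount of 10 CPM, and to 1 for protons over photons with at least 2500 genes.

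Among smaller ratios, Hsp90ab1 turned to -0.12 after photons and -0.09 after protons, and Hspa8 to -0.14 after protons, with at least 1% Malat1, and some other small ratios of each comparison changed sign too. Ratios past 1.5-fold changed direction in comparisons with tissue or 11-day mSGOs. Tissue over control became -0.40 for Hspa1b and -0.31 for Hsph1 with at least 2500 genes, and -0.45 and -0.46 with no minimum of genes. With at least 1% Malat1 it became 0.26 for Hspa8, 0.51 for Hsp90aa1 and 0.56 for Dnajb1, and 11-day over tissue became -0.91 for Hspa8, -0.64 for Hsp90aa1 and -1.09 for Dnaja1. Median-of-ratios scaling gave -0.27 for Hsph1 and -0.37 for Dnaja1 (11-day over control), 0.13 for Hsp90aa1 and 0.0115 for Dnajb1 (tissue over control), and -1.27 for Hspa8, -0.65 for Hsp90aa1 and -1.33 for Dnaja1 (11-day over tissue). A total without abundant genes gave 0.12 for Hsp90aa1 and 0.0015 for Dnajb1, and -0.99, -0.37 and -1.06. Tissue without its endothelial-like clusters, added after seeing the data, gave -0.34 for Hspa1b. The causes were not tested. Counts of 6 Hspa1a UMIs in control cluster 4 of the merged libraries and of 121 Hsph1 UMIs in tissue limit those values.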
